A study of Mus musculus with 12 samples.

Results

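The genes described here carry, bind or convert lactate, or bring pyruvate into mitochondria. They are the lactate receptor gene Hcar1, the carrier genes Slc16a1, Slc16a3 and Slc16a7, the carrier chaperone genes Bsg and Emb, the dehydrogenase genes Ldha and Ldhb, and Mpc1 and Mpc2 of the mitochondrial pyruvate carrier. They were chosen by symbol, and all 10 were found among the 56832 gene entries of the count table. The values are RNA sequencing counts of macrophages sorted from mouse marrow as CD45+, F4/80+, Ly6g- and Ly6c-. The leukemic mice had been given transplanted cells of the bcCML model, a mouse model of blast-crisis chronic myeloid leukemia, and were taken in late disease, at day 11. The non-leukemic mice were healthy, and the labels used here give them no transplant. There were 3 libraries each from male leukemic, female leukemic, male non-leukemic and female non-leukemic mice, so 6 per condition; no label gives a strain, an age or whether a replicate is 1 animal.

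Lactate crosses the cell membrane with a proton through monocarboxylate carriers, which need basigin or embigin to reach the surface. Inside the cell, lactate dehydrogenase converts lactate and pyruvate into each other, as a tetramer of LDHA and LDHB subunits, and the MPC1 and MPC2 complex takes pyruvate into the mitochondrion. Outside the cell, lactate activates GPR81, the product of Hcar1, which signals through Gi proteins that lower cyclic AMP. The series title names this receptor, and the comparison asks how marrow macrophages in leukemia differ from healthy ones.

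In leukemic libraries Ldha and Emb rose and Slc16a1, Bsg and Mpc2 fell. Levels are given as CPM (a gene's counts scaled by its library's total), and the counts were tested with the quasi-likelihood test of edgeR, with sex as a term, over 15758 genes. An adjusted p under 0.05 counted as passed. Of the 9 genes tested 5 passed, 2 higher and 3 lower, where 17.9% of all genes tested passed, 8.71% higher and 9.2% lower. The median log2 fold change was -0.32 over the 9 genes and -0.0086 over all genes tested. Slc16a3, Slc16a7, Ldhb and Mpc1 did not pass, and Hcar1 had no counts.

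Total counts were 22437689 to 30014855 in the leukemic and 16911827 to 26611831 in the non-leukemic libraries. The library of female leukemic replicate 1 held 17891 detected genes, fewer than the 19521 to 21247 of the other 11, and is treated as standing apart. So is male non-leukemic replicate 3, which had 258 CPM of Adgre1, the gene of F4/80, and 1107 CPM of Csf1r, a macrophage growth factor receptor, both the highest of all 12 libraries. Adgre1 averaged 52.8 ± 12.3 CPM in leukemic and 121 ± 68.1 CPM in non-leukemic libraries (SD, n = 6 each) and fell (log2 fold change -1.25 ± 0.30 SE, adjusted p = 0.0129 in edgeR). Ptprc, the gene of CD45, averaged 593 ± 222 CPM in leukemic and 347 ± 52.9 CPM in non-leukemic libraries and rose (log2 fold change 0.64 ± 0.18 SE, adjusted p = 0.0238 in edgeR). Of the genes the sort selects against, Ly6g had 4.76 to 24.2 CPM in leukemic and 31.1 to 77.9 CPM in non-leukemic libraries, and Ly6c2 had 121 to 409.9 CPM in leukemic and 173 to 449.7 CPM in non-leukemic libraries.

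Genes that mark other marrow cells also differed. Red cell precursor markers held 0.0815% to 0.156% of counts in leukemic and 1.54% to 2.05% in non-leukemic libraries, and all 13 fell. T and NK cell markers held 0.130% to 0.267% in leukemic and 0.0302% to 0.0588% in non-leukemic libraries, and all 13 rose. Neutrophil markers held 1.32% to 2.79% in leukemic and 2.86% to 6.57% in non-leukemic libraries, and 9 of 14 fell. The other genes of that list did not pass in edgeR. Mpo and Ctsg had log2 fold changes of 0.29 and 0.77, and Elane, Prtn3 and Retnlg of -0.58, -0.099 and -1.01. Macrophage markers held 0.0512% to 0.119% in leukemic and 0.128% to 0.470% in non-leukemic libraries, and 8 of 14 fell. Each of these 4 shares had an exact two-sided permutation p of 0.00216, the smallest that rearranging 12 libraries can give, and an adjusted p of 0.00541 over 10 lists. None of the lists had a marker at 0 in all libraries. The part of these cells in the results that follow was not tested. In sorted bulk RNA, fewer cells of a type and less RNA per cell cannot be told apart.

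**Figure D1:**
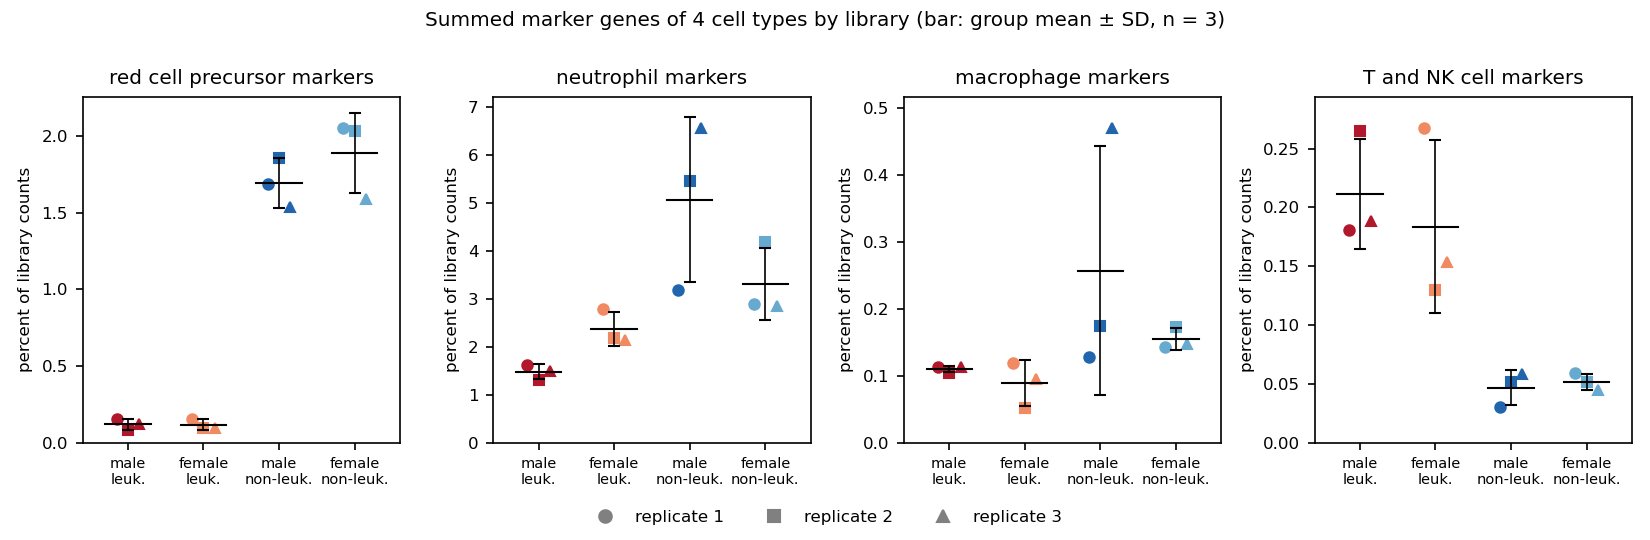
Summed marker genes of red cell precursors, neutrophils, macrophages and T and NK cells, as percent of a library's counts, in male leukemic, female leukemic, male non-leukemic and female non-leukemic libraries (points: libraries; bars: group mean ± SD, n = 3). Red cell, neutrophil and macrophage markers are lower, and T and NK cell markers higher, in all 6 leukemic than in all 6 non-leukemic libraries; macrophage markers are highest in male non-leukemic replicate 3, at 0.470%.

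Promoter sequences are shown for 4 of these genes: Ldha and Emb, which both rose, Slc16a1, which fell, and Slc16a3, which did not pass. They come from RefSeq on GRCm38.p6, run from 250 bases before to 50 bases after the start, and are printed on the gene's strand, which is plus for all 4. RefSeq windows of 300 bases were matched by symbol for 8 of the 10 genes (10 windows), and none was matched for Bsg and Slc16a7. Capitals mark ACGTG and GCGTG, the core of the hypoxia response element, on either strand, with CACGTG, the E-box, as a longer match that holds ACGTG on both strands. The windows lie at chr7:46845554-46845853 for Ldha, chr3:104638414-104638713 for Slc16a1, chr11:120948817-120949116 for Slc16a3 and chr13:117220323-117220622 for Emb.
Ldha: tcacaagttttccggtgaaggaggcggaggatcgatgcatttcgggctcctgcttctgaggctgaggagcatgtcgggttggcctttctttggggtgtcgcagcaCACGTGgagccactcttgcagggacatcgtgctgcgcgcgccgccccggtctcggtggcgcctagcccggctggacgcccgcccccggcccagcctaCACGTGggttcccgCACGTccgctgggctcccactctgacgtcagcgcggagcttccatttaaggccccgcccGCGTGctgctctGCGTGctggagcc
Slc16a1: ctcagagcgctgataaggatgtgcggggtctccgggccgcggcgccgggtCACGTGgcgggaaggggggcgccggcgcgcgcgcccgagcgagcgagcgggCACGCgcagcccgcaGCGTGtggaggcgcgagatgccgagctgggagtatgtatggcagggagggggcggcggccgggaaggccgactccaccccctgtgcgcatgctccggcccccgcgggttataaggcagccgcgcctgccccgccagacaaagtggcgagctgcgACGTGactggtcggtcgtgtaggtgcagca
Slc16a3: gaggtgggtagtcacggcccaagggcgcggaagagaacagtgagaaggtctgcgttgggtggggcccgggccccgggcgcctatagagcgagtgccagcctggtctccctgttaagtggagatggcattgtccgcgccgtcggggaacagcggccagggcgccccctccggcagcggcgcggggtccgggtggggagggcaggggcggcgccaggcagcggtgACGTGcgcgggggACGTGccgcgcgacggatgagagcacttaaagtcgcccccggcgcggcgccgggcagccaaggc
Emb: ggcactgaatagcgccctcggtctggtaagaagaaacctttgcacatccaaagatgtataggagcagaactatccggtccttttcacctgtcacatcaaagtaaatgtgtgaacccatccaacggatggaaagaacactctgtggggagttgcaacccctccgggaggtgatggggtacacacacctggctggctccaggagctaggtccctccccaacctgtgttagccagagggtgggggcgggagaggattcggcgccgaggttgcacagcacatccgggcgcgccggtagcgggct

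The Ldha window shown held 5 ACGTG and 2 GCGTG matches with 2 E-boxes among them; each E-box counts as an ACGTG match on both strands. A second RefSeq window of Ldha, at chr7:46846832-46847131 on the plus strand, held 2 GCGTG matches and neither ACGTG nor an E-box. The Slc16a1 window held 3 ACGTG and 2 GCGTG matches with 1 E-box, and the Slc16a3 window held 2 ACGTG matches and no E-box. The Emb window held none of the 3 motifs. Among the windows shown, matches lay beside Ldha, which rose, Slc16a1, which fell, and Slc16a3, which did not pass. Emb, which rose, had none. A link between matches and the changes was not tested. Of the 10 windows, 3 held ACGTG and 8 held ACGTG or GCGTG. Among 32851 RefSeq windows of the same length, 19.6% held ACGTG, 43.8% held ACGTG or GCGTG and 7.15% held CACGTG. A match is a description of the letters and does not show that a factor binds there.

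Hcar1, which encodes the lactate receptor GPR81, had 0 counts in each of the 6 leukemic and 6 non-leukemic libraries. A count of 0 allows up to 3 counts, which is 0.1 to 0.177 CPM in 1 library, 0.0186 CPM over the pooled leukemic libraries and 0.0231 CPM over the pooled non-leukemic ones. Hcar1 was therefore not detected among the counted reads in either condition, no fold change can be given, and it was not tested. These limits, like the Wilson interval given below, cover counting error only. They do not cover reads that the counter did not assign to the gene. Of the 56832 gene entries, 27619 had no count in any library.

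Hcar2, a close relative of Hcar1 that encodes a receptor for beta-hydroxybutyrate and niacin, averaged 14.7 ± 6.64 CPM in leukemic and 7.16 ± 3.43 CPM in non-leukemic libraries (SD, n = 6 each) and did not pass (log2 fold change 1.02 ± 0.40 SE, adjusted p = 0.0992).

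Of 18 genes for Gi proteins, arrestins, adenylyl cyclases and cyclic AMP readers, through which GPR81 acts, 15 were tested, 3 rose and 2 fell. Over all genes tested 8.71% rose and 9.2% fell. Arrb1, which encodes the receptor adaptor beta-arrestin 1, had 19.1 to 42.6 CPM in leukemic and 46.1 to 105 CPM in non-leukemic libraries, with no overlap, and fell (log2 fold change -1.36 ± 0.21 SE, adjusted p = 0.000850). Gnai3, a Gi alpha subunit, averaged 297 ± 46.7 CPM in leukemic and 211 ± 36.4 CPM in non-leukemic libraries (SD, n = 6 each) and rose by 0.42 ± 0.10 (SE, adjusted p = 0.0125). Arrb1 and Gnai3 passed in all 12 fits that left out 1 library. Prkar1a, a regulatory subunit of protein kinase A, and Adcy7, an adenylyl cyclase, rose (log2 fold changes 0.30 and 0.35, adjusted p = 0.0264 and 0.0307). Adcy6, another cyclase, fell by 1.42 (adjusted p = 0.0394). The Prkar1a call was lost without female non-leukemic replicate 2, and the Adcy7 call without that library, male non-leukemic replicates 1 and 2 or male leukemic replicate 1. Adcy6 passed only without male non-leukemic replicate 2 or 3. The number of genes that rose ran from 1 to 5 over these fits, with 1 without female non-leukemic replicate 2 and 5 without female leukemic replicate 1.

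Slc16a1, which encodes the carrier MCT1, had 134 to 276 CPM in the 6 leukemic libraries with a median of 225 CPM, and 211 to 502 CPM in the 6 non-leukemic libraries with a median of 416 CPM. All leukemic libraries lay below 5 of the 6 non-leukemic ones, and the groups overlapped only at male non-leukemic replicate 3, whose 211 CPM lay inside the leukemic range; the other 5 were at 373 CPM or more. The means were 216 ± 48.5 CPM in leukemic and 394 ± 100.1 CPM in non-leukemic libraries (SD, n = 6 each). Slc16a1 fell (log2 fold change -0.95 ± 0.18 SE, adjusted p = 0.00314 in edgeR), a fold of 0.519. Its log2 fold change was between -1.07 and -0.80, and passed, in each of the 12 fits without 1 library. Male non-leukemic replicate 3 had 1.54% of red cell precursor markers, the lowest non-leukemic share, and 0.470% of macrophage markers, the highest. Female non-leukemic replicate 3 had 1.59% of red cell precursor markers and 447 CPM of Slc16a1. The red cell precursor share sums 13 genes, which spread unequally among non-leukemic libraries. Hbb-bs ran from 5330 to 8203 CPM there, and Ermap from 126 to 601 CPM. A link between these shares or their genes and Slc16a1 was not tested.

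Slc16a3 and Slc16a7, which encode the carriers MCT4 and MCT2, did not pass. Slc16a3 had 36.9, 54.9 and 72.0 CPM as the lowest, median and highest of leukemic libraries, and 33.4, 47.2 and 79.2 CPM as those of non-leukemic libraries. All leukemic values lay inside the non-leukemic range, and the highest value of all was in male non-leukemic replicate 3. The log2 fold change was 0.071 ± 0.18 (SE, adjusted p = 0.838), with a 95% interval of -0.31 to 0.45. Slc16a7 was the gene with the fewest counts among those detected, with 117 counts in male leukemic replicate 3, or 4.41 CPM (Wilson 95% interval 3.68 to 5.29). It had 4.41, 8.77 and 10.7 CPM as the lowest, median and highest leukemic values and 6.12, 8.41 and 24.4 CPM as the non-leukemic ones, the highest again in male non-leukemic replicate 3. Its log2 fold change was -0.49 ± 0.38 (SE, adjusted p = 0.427; 95% interval -1.30 to 0.32) with all libraries and -0.039 without male non-leukemic replicate 3.

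Bsg and Emb encode basigin and embigin, paralogous membrane proteins that bring the carriers to the cell surface, and they changed in opposite directions. Bsg had 341 to 426 CPM in leukemic libraries with a median of 384 CPM, and 400.5 to 803 CPM in non-leukemic libraries with a median of 663 CPM. Only male non-leukemic replicate 3, at 400.5 CPM, lay inside the leukemic range, and the other non-leukemic libraries were at 571 CPM or more. The means were 383 ± 27.9 CPM in leukemic and 637 ± 139 CPM in non-leukemic libraries (SD, n = 6 each). Bsg fell (log2 fold change -0.80 ± 0.13 SE, adjusted p = 0.00124), a fold of 0.575.

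Emb had 256 to 333 CPM in leukemic libraries with a median of 303 CPM, and 119 to 246 CPM in non-leukemic libraries with a median of 156 CPM. Every leukemic library was above every non-leukemic one; the nearest were female leukemic replicate 1, at 256 CPM, and male non-leukemic replicate 3, at 246 CPM. Such a separation was found with leukemic libraries higher in 5.05% of all genes tested, with leukemic libraries lower in 3.63%, and in either direction in 8.68%. The means were 301 ± 26.1 CPM in leukemic and 167 ± 49.0 CPM in non-leukemic libraries (SD, n = 6 each). Emb rose (log2 fold change 0.78 ± 0.17 SE, adjusted p = 0.00620), a fold of 1.71. Bsg and Emb passed in all 12 fits without 1 library, with log2 fold changes of -0.89 to -0.66 and of 0.71 to 0.92.

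Ldha encodes the LDHA subunit, the main form in skeletal muscle. It had 1584 to 2113 CPM in leukemic libraries with a median of 1932 CPM, and 953 to 1206 CPM in non-leukemic libraries with a median of 1099 CPM. All 6 leukemic libraries were above all 6 non-leukemic ones. The means were 1893 ± 207 CPM in leukemic and 1105 ± 95.1 CPM in non-leukemic libraries (SD, n = 6 each). Ldha rose (log2 fold change 0.70 ± 0.11 SE, adjusted p = 0.000953), a fold of 1.63, and was between 0.66 and 0.77 in all 12 fits without 1 library. With Emb it was 1 of the 2 genes of the 9 whose CPM did not overlap between conditions. CPM leave out the TMM scaling factors used in the tests. These ran from 0.882 in female leukemic replicate 1 to 1.08 in male leukemic replicate 1. An overlap such as that of Bsg can depend on this scaling.

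Ldhb encodes the LDHB subunit, the main form in heart. It had 22.5, 26.8 and 30.6 CPM as the lowest, median and highest leukemic values and 18.8, 23.2 and 27.9 CPM as the non-leukemic ones. The groups overlapped, and Ldhb did not pass (log2 fold change 0.11 ± 0.16 SE, adjusted p = 0.693; 95% interval -0.23 to 0.45).

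Mpc2, a subunit of the mitochondrial pyruvate carrier, had 78.5 to 119 CPM in leukemic libraries with a median of 91.0 CPM, and 109.9 to 143 CPM in non-leukemic libraries with a median of 133 CPM. The 3 male leukemic libraries were the lowest of all, at 78.5, 81.1 and 86.2 CPM, while female leukemic replicates 1 and 2, at 119 and 114 CPM, lay inside the non-leukemic range. The means were 95.8 ± 17.3 CPM in leukemic and 129 ± 13.6 CPM in non-leukemic libraries (SD, n = 6 each). Mpc2 fell (log2 fold change -0.52 ± 0.14 SE, adjusted p = 0.0251), a fold of 0.699. That call depended on single libraries: it held in 4 of 12 fits, those without female leukemic replicate 1 or 2, female non-leukemic replicate 3 or male non-leukemic replicate 3, and the adjusted p over the 12 fits ran from 0.00409 to 0.0917. The log2 fold change stayed between -0.60 and -0.43.

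Mpc1, its partner subunit, had 25.7, 29.1 and 47.4 CPM as the lowest, median and highest leukemic values and 32.8, 39.3 and 43.3 CPM as the non-leukemic ones. Female leukemic replicate 1 held the highest value of all 12 libraries, and 4 of the other leukemic libraries were below the lowest non-leukemic one. Mpc1 did not pass (log2 fold change -0.32 ± 0.18 SE, adjusted p = 0.254; 95% interval -0.71 to 0.07). Without female leukemic replicate 1 it was at -0.48 with an adjusted p of 0.0121.

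**Figure D2:**
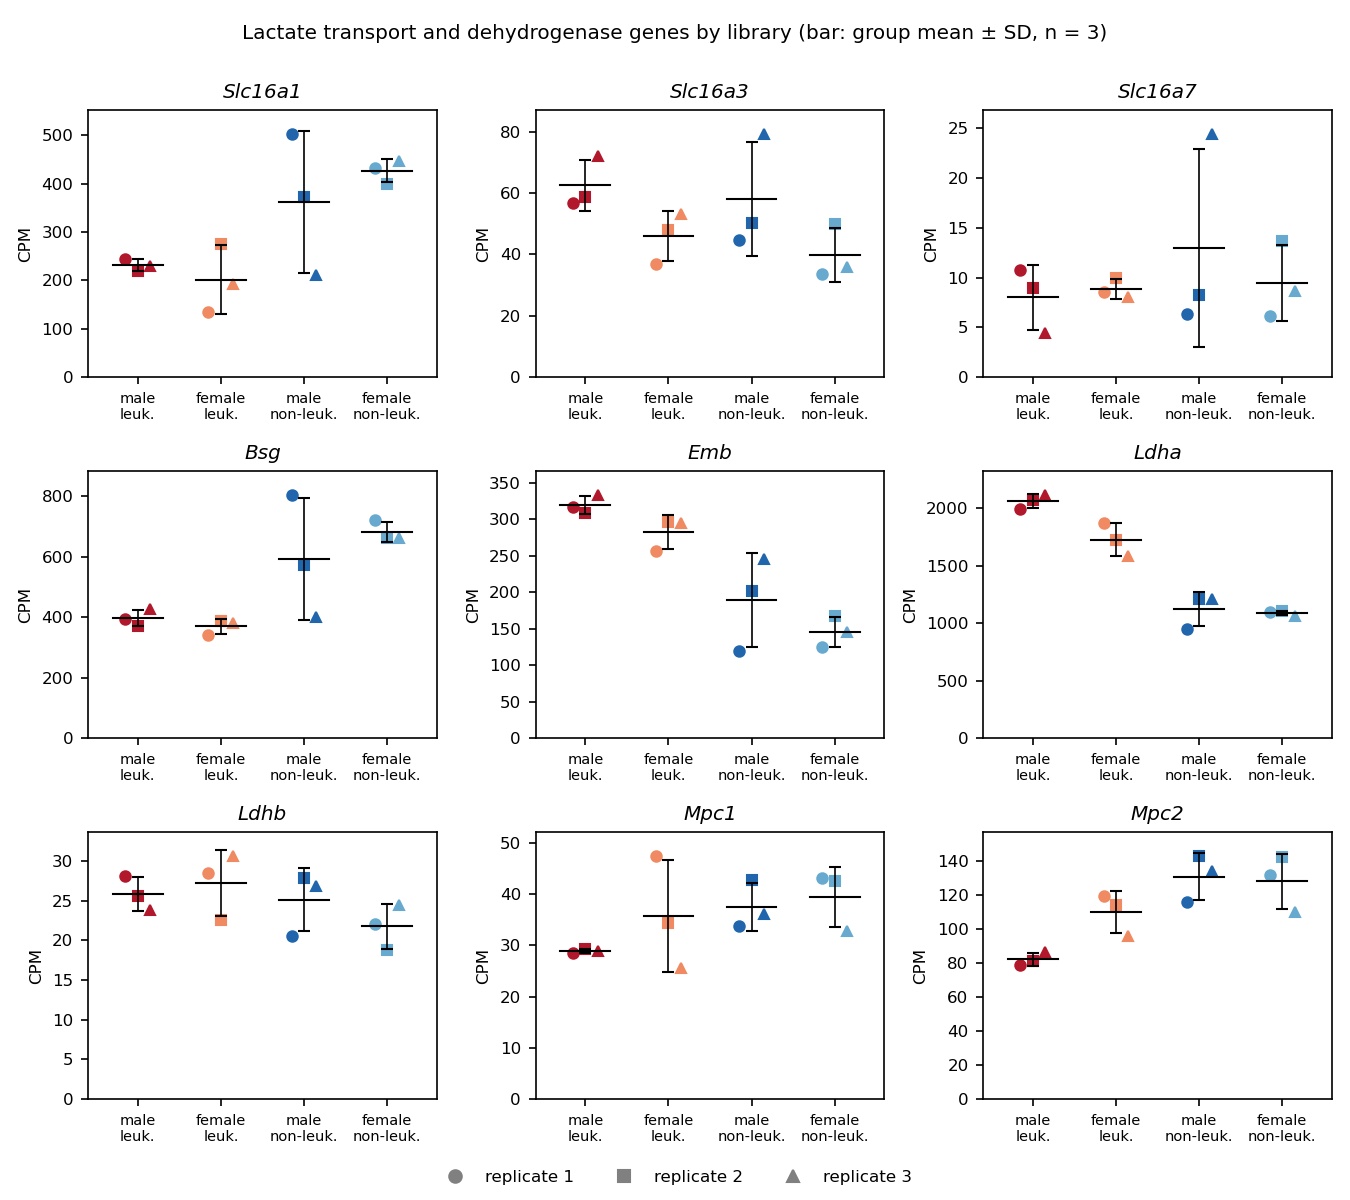
CPM of the 9 detected genes in male leukemic, female leukemic, male non-leukemic and female non-leukemic libraries (points: libraries, marked by replicate number; bars: group mean ± SD, n = 3). Ldha and Emb are higher in every leukemic library, and male non-leukemic replicate 3 sits near the leukemic libraries for Slc16a1, at 211 CPM, and Bsg, at 400.5 CPM.

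**Figure D3:**
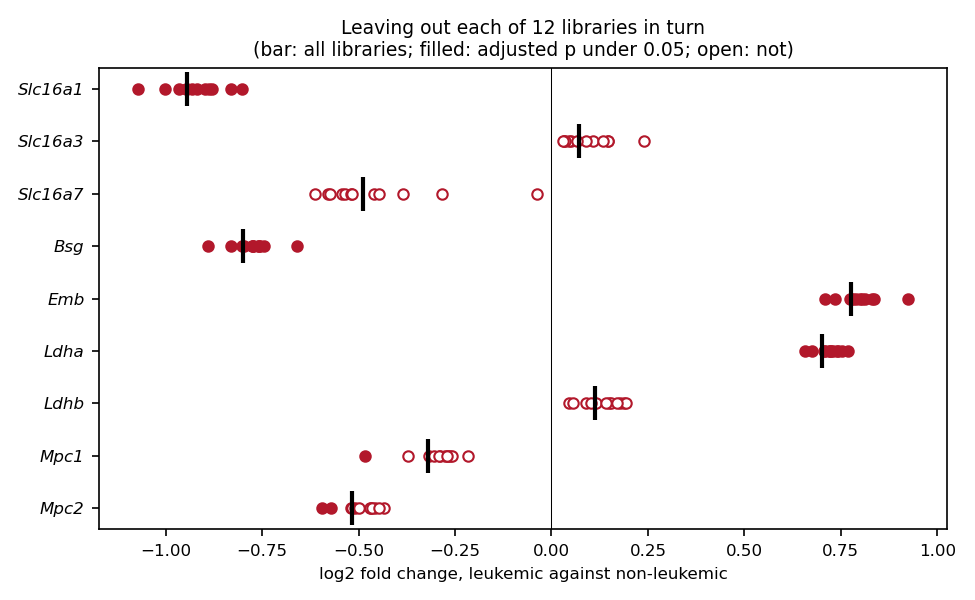
Log2 fold changes, leukemic against non-leukemic, with all libraries (bar) and with each of 12 libraries left out (points; filled where the adjusted p was under 0.05). Slc16a1, Bsg, Emb and Ldha stay past the threshold in all 12 fits, Mpc2 in 4, and Mpc1 passes in 1.

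Ratios of counts within a library do not depend on how libraries are scaled; they are not per length and are given without a test. The ratio of Bsg to Emb was 1.20 to 1.33 in leukemic libraries, against 1.63 to 6.74 in non-leukemic libraries, so the ranges did not meet. It was also far more even among the leukemic libraries, with an SD of 0.054 on the log2 scale in leukemic and 0.75 in non-leukemic libraries. The lowest non-leukemic ratio was in male non-leukemic replicate 3, at 1.63.

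The ratio of Slc16a3 to Slc16a1 was 0.174 to 0.313 in leukemic and 0.0772 to 0.376 in non-leukemic libraries. On the log2 scale the leukemic libraries were between -2.52 and -1.68; male non-leukemic replicate 3 was above them at -1.41, and the other 5 non-leukemic libraries were below them, between -3.69 and -2.89. The ratio of Ldha to Ldhb was 51.8 to 89.0 in leukemic and 43.3 to 58.7 in non-leukemic libraries, and 5 of 6 leukemic libraries were above every non-leukemic one. The ratio of Mpc1 to Mpc2 was 0.268 to 0.397 in leukemic and 0.270 to 0.328 in non-leukemic libraries, which overlapped.

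**Figure D4:**
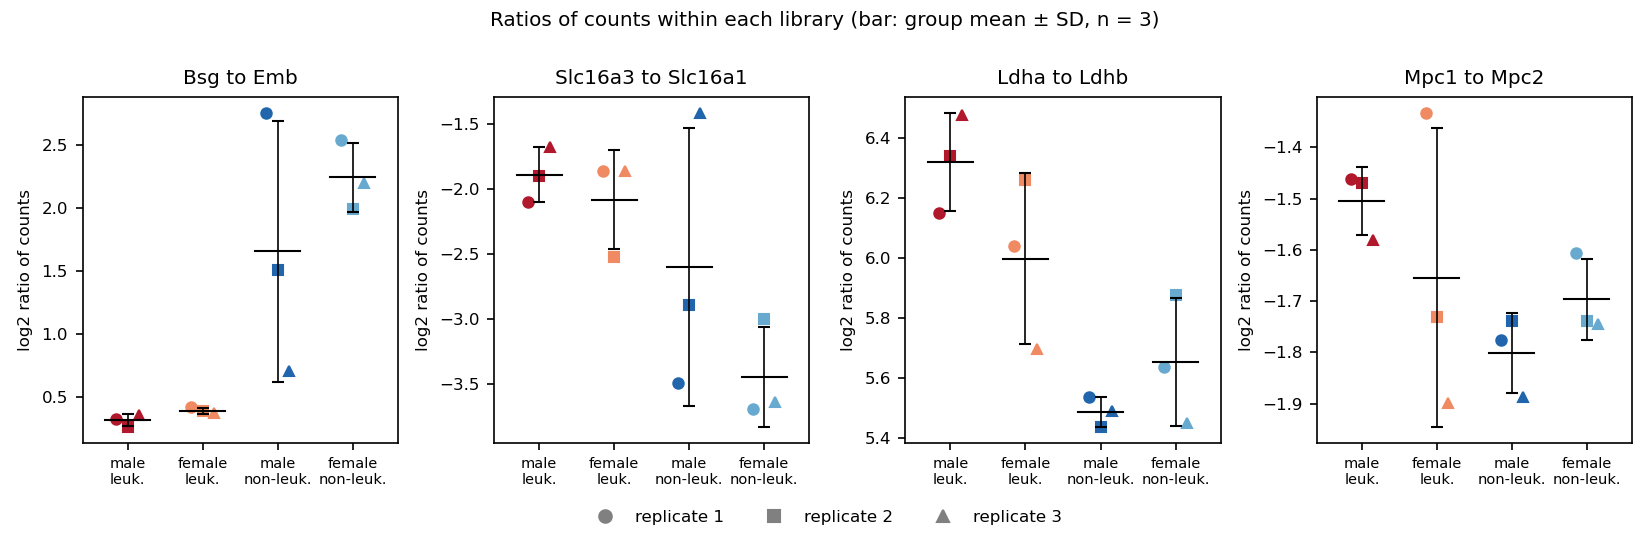
Log2 ratios of counts of Bsg to Emb, Slc16a3 to Slc16a1, Ldha to Ldhb and Mpc1 to Mpc2 within each library (points: libraries, marked by replicate number; bars: group mean ± SD, n = 3). The Bsg to Emb ratio is lower in all 6 leukemic libraries, between 0.26 and 0.42, than in any non-leukemic one, and the Slc16a3 to Slc16a1 ratio overlaps through male non-leukemic replicate 3, at -1.41.

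The changes were also tested in each sex, in a model with 4 group means. Between male leukemic and male non-leukemic libraries 1 of the 9 genes was higher and 2 were lower, where 7.37% of all genes passed, 3.34% higher and 4.04% lower. Ldha had 1993, 2072 and 2113 CPM in male leukemic libraries and 953, 1206 and 1206 CPM in male non-leukemic libraries, and rose (log2 fold change 0.72 ± 0.16 SE, adjusted p = 0.0198). Mpc2 had 78.5, 81.1 and 86.2 CPM in male leukemic libraries and 115, 143 and 134 CPM in male non-leukemic libraries, and fell by 0.83 ± 0.17 (SE, adjusted p = 0.0115).

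Bsg fell by 0.72 ± 0.19 in males (SE, adjusted p = 0.0423). Slc16a1 and Emb did not pass there, at -0.78 ± 0.26 and 0.59 ± 0.23 (SE, adjusted p = 0.0931 and 0.158). Male non-leukemic replicate 3 bears on all 3: without it, Bsg was at -0.90 in males, Slc16a1 at -1.03 (adjusted p = 0.0148) and Emb at 0.89 (adjusted p = 0.0249). The male Bsg call held in 2 of 12 fits, without that library or without female leukemic replicate 1. The male Ldha call was lost without male non-leukemic replicate 2 or any 1 of the male leukemic replicates, and the male Mpc2 call without male leukemic replicate 1 or 2.

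Between female leukemic and female non-leukemic libraries 2 of the 9 genes were higher and 2 were lower, where 8.43% of all genes passed, 3.84% higher and 4.59% lower. Slc16a1 had 134, 276 and 193 CPM in female leukemic libraries and 433, 399.7 and 447 CPM in female non-leukemic libraries, and fell (log2 fold change -1.11 ± 0.26 SE, adjusted p = 0.0222). Bsg had 341, 387 and 381 CPM in female leukemic libraries and 720.2, 662 and 663 CPM in female non-leukemic libraries, and fell by 0.88 ± 0.19 (SE, adjusted p = 0.0160). In females no leukemic value of either gene reached a non-leukemic one.

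Emb rose by 0.96 ± 0.23 in females and Ldha by 0.68 ± 0.16 (SE, adjusted p = 0.0261 and 0.0237), again without overlap. Mpc2 had 119, 114 and 95.7 CPM in female leukemic libraries and 132, 142 and 109.9 CPM in female non-leukemic libraries, which overlapped, and was at -0.21 ± 0.17 (SE, adjusted p = 0.512). With 1 library left out of 12, the female calls held in 7 fits for Slc16a1, 9 for Ldha, 8 for Bsg and 8 for Emb. Slc16a1, Ldha and Emb were lost without any 1 of the female non-leukemic replicates. Slc16a1 was lost also without female leukemic replicate 1 or 3, Emb also without female leukemic replicate 3, and Bsg without female non-leukemic replicate 1 or 3 or female leukemic replicate 2 or 3.

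The difference between the sexes in the leukemia effect passed for 0 of the 9 genes, and for 0 of all genes in edgeR (0%). At an unadjusted p under 0.05 it was met by 1 of the 9 genes and 925 of all genes; DESeq2 called 23 genes, none of the 9, and limma-voom 0. The 1 gene was Mpc2, whose male minus female difference in log2 fold change was -0.62 ± 0.24 (SE, adjusted p = 0.819). Male against female libraries differed in 0 of the 9 genes within the leukemic and 0 within the non-leukemic condition, again with 0% of all genes in edgeR. Even Xist had no call there, though it had at least 28.8 CPM in female and at most 3.19 CPM in male libraries. Nor had Ddx3y, with at least 38.7 CPM in male and at most 4.06 CPM in female libraries. The lack of calls between the sexes in edgeR therefore does not show that they were alike. Unadjusted, 1370 genes in leukemic and 769 in non-leukemic libraries were under 0.05, including 1 of the 9 in each, and DESeq2 called 120 and 35 genes and limma-voom 0 and 0 in leukemic and non-leukemic libraries. Those 2 were Mpc2, with a log2 fold change of -0.57 between male and female leukemic libraries (adjusted p = 0.457), and Slc16a3, with 0.58 between male and female non-leukemic libraries (adjusted p = 0.955).

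Genes next to these in the same pathway were counted from lists of the same kind. The counts of this and the next lists stand beside 17.9% of all genes tested that passed, 8.71% higher and 9.2% lower. Of 14 other carriers and chaperones, 9 were tested, 0 rose and 3 fell. Slc16a10, an aromatic amino acid carrier, had 11.7 to 19.1 CPM in leukemic and 33.7 to 53.3 CPM in non-leukemic libraries and fell (log2 fold change -1.59 ± 0.16 SE, adjusted p = 3.31e-05). Slc16a6, which exports ketone bodies from the liver in zebrafish, fell by 0.78 ± 0.12 (SE, adjusted p = 0.000918), and Nptn, the neuroplastin gene, a further relative of Bsg and Emb, by 0.47 ± 0.11 (SE, adjusted p = 0.0123). The conditions did not overlap for Slc16a10 and Slc16a6. Slc16a8, Slc5a8, Slc5a12 and, among the dehydrogenases, Ldhal6b had no counts.

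Of 5 other lactate enzymes 4 were tested, 0 rose and 2 fell, and both that fell belong to the glyoxalase pathway, which turns methylglyoxal into D-lactate. Hagh, its second enzyme, had 30.7 to 42.0 CPM in leukemic and 112 to 245 CPM in non-leukemic libraries, with no overlap. Hagh fell (log2 fold change -2.46 ± 0.17 SE, adjusted p = 2.21e-06), more than any of the 9 genes above. Glo1, the first enzyme, had 43.4 to 54.4 CPM in leukemic and 49.7 to 83.2 CPM in non-leukemic libraries and fell by 0.58 ± 0.12 (SE, adjusted p = 0.00469).

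Of 16 glucose transporter and glycolysis genes all were tested, and 7 rose and 1 fell; their median log2 fold change was 0.39. Pfkp, the platelet-type phosphofructokinase, averaged 334 ± 87.5 CPM in leukemic and 120 ± 29.9 CPM in non-leukemic libraries (SD, n = 6 each) and rose (log2 fold change 1.37 ± 0.19 SE, adjusted p = 0.000310). Slc2a1, the glucose transporter GLUT1, had 46.7 to 58.9 CPM in leukemic and 14.7 to 42.7 CPM in non-leukemic libraries, with no overlap, and rose by 1.04 ± 0.23 (SE, adjusted p = 0.00693). Pgk1 and Pgam1, which encode steps between the triose phosphates and pyruvate, rose by 0.72 and 0.61 (adjusted p = 0.000710 and 0.0111).

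Pfkm, the muscle-type phosphofructokinase, which red cells also use, fell (log2 fold change -1.51 ± 0.28 SE, adjusted p = 0.00237). All 13 red cell precursor markers fell too, and a link between the falls was not tested. The other genes that rose were Pfkl, Tpi1 and Hk2, with adjusted p of 0.0253, 0.0436 and 0.0486. Gapdh, between Tpi1 and Pgk1 in the pathway, did not pass (log2 fold change 0.52, adjusted p = 0.0675). The count of genes that rose was 4 without female non-leukemic replicate 2 or male non-leukemic replicate 2, and 12 without male non-leukemic replicate 3, or without both that library and female leukemic replicate 1. The Pfkl call was lost without either of the first of these, the Tpi1 call held in 4 and the Hk2 call in 3 of 12 fits.

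Enzymes that make or use pyruvate, listed together with the phosphoenolpyruvate enzymes Pck1 and Pck2, moved in both directions. Of the 10 genes of this list 8 were tested, 2 rose and 3 fell, with Pck2 among those that fell. Gpt2, which exchanges pyruvate and alanine, had 9.31 to 24.3 CPM in leukemic and 2.58 to 7.74 CPM in non-leukemic libraries, with no overlap, and rose (log2 fold change 1.65 ± 0.31 SE, adjusted p = 0.00294). Pkm, the pyruvate kinase of most tissues, rose by 0.56 ± 0.16 (SE, adjusted p = 0.0298), in 7 of 12 fits without 1 library. Pklr, the pyruvate kinase of liver and red cells, fell by 2.04 ± 0.35 (SE, adjusted p = 0.00143). Pcx, pyruvate carboxylase, fell by 1.71 and Pck2, the mitochondrial enzyme that makes phosphoenolpyruvate, by 0.79 (adjusted p = 0.00213 and 0.00212). The Pkm call was lost without female non-leukemic replicate 1 or 3, female leukemic replicate 3, male non-leukemic replicate 2 or male leukemic replicate 2.

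The pyruvate dehydrogenase complex follows the mitochondrial pyruvate carrier. Of its 5 genes 0 rose and 2 fell. Pdhx, its anchoring subunit, fell (log2 fold change -0.57 ± 0.14 SE, adjusted p = 0.0153), a call lost without male non-leukemic replicate 1. Pdhb, part of its first enzyme, fell by 0.38 ± 0.11 (SE, adjusted p = 0.0354), a call that held only without female leukemic replicate 1 or male non-leukemic replicate 3. Pdha1, the partner of Pdhb, was at -0.026 (adjusted p = 0.934). Of the 7 genes of its kinases and phosphatases 6 were tested, and Pdp1, a phosphatase that activates the complex, rose by 0.77 ± 0.19 (SE, adjusted p = 0.0121) in all 12 fits; none fell. Pdk4 had too few counts to be tested.

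**Figure D5:**
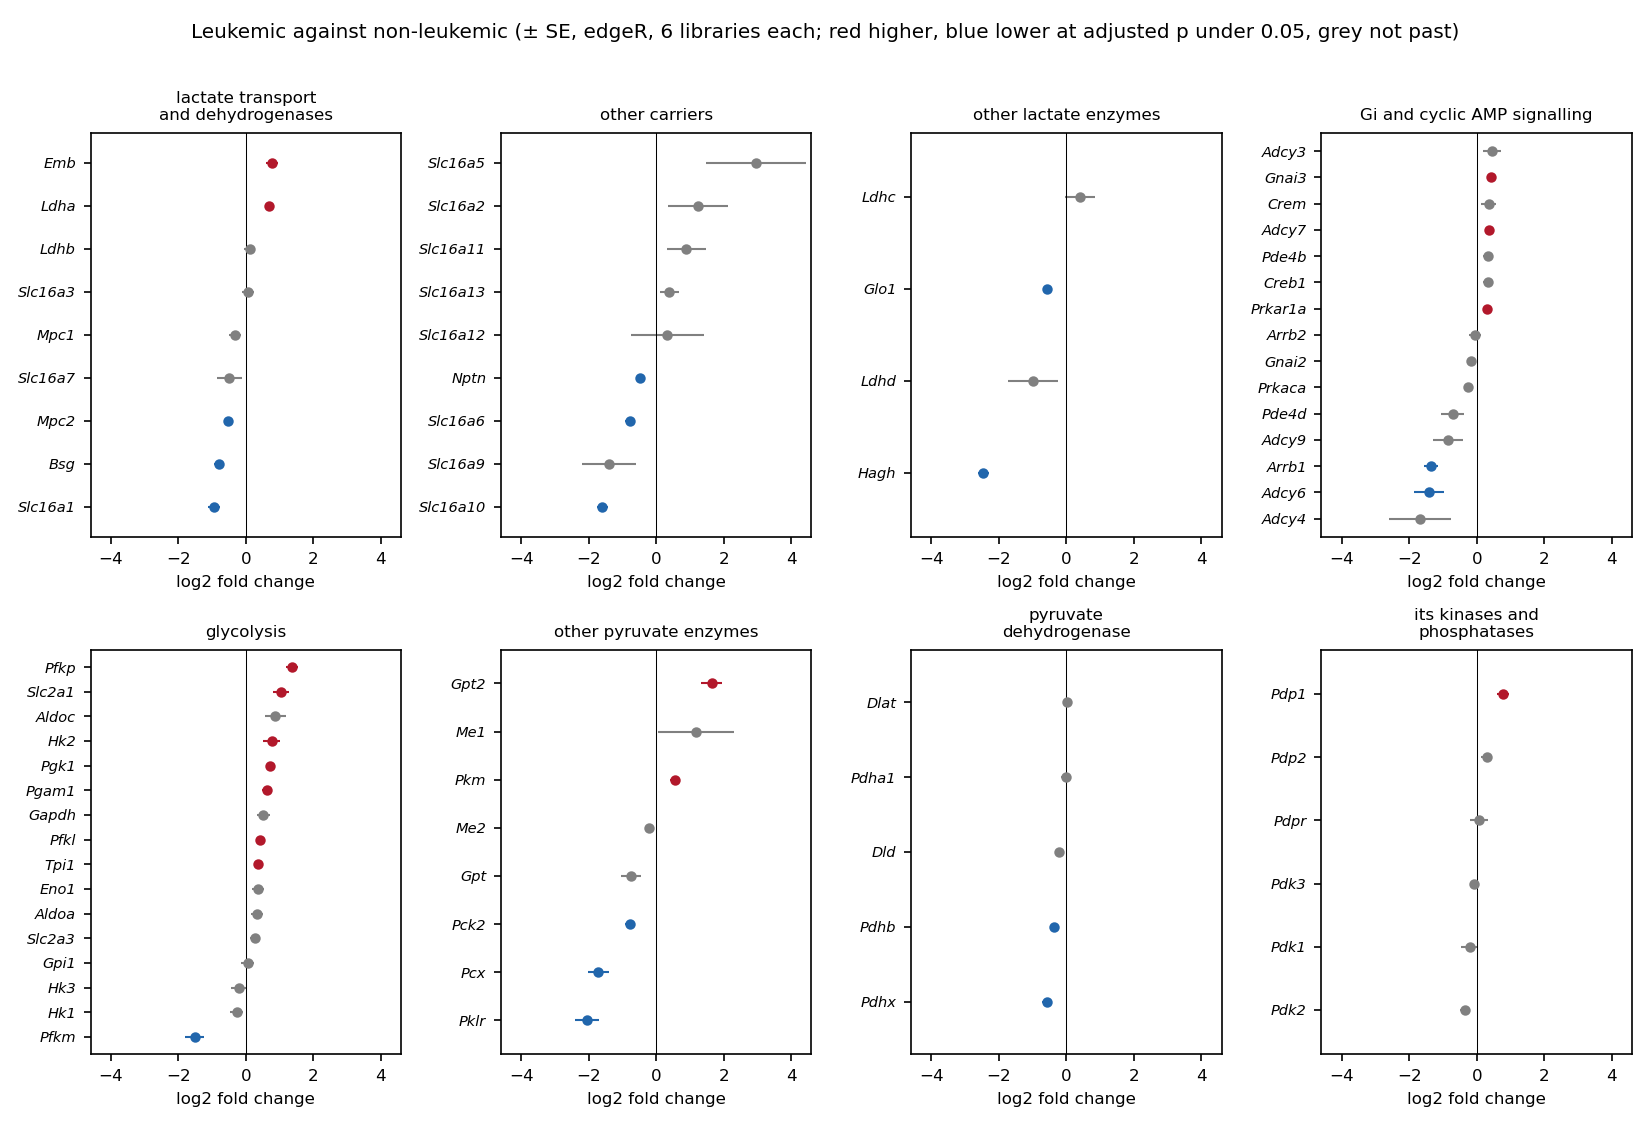
Log2 fold changes of the 9 detected genes and of the related lists, leukemic against non-leukemic (points: edgeR estimates; lines: SE; 6 libraries each; red higher and blue lower at an adjusted p under 0.05, grey not past). Among 16 glycolysis genes 7 are red and only Pfkm is blue, and Hagh, at -2.46, lies further to the left than any of the 9.

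For each gene that passed, the 3 genes with the most similar pattern over the 12 libraries were found among 7989 genes with a mean log2 CPM of at least 4. Likeness was the root mean square difference of log2 CPM after each gene's mean was removed, so that a small value means a close pattern; it has no test. Nearest to Ldha was Pgk1, the glycolytic phosphoglycerate kinase above, at 0.0760, followed by Ppa1, inorganic pyrophosphatase, at 0.124, and Slc25a4, a mitochondrial ADP and ATP carrier, at 0.128. Among the genes nearest to Emb were Pgam1 at 0.117 and Etv6, a transcription factor gene, at 0.145.

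Nearest to Bsg were Rad51ap1, a DNA repair gene, at 0.0946, Prkab1, a subunit of AMP-activated kinase, at 0.107, and Aurka, a mitotic kinase gene, at 0.109. Slc16a1 was nearest to Dek, a chromatin protein gene, at 0.110, Smc2, a condensin gene, at 0.125, and Metap2, a methionine aminopeptidase gene, at 0.133. Mpc2 was nearest to Etfrf1, a mitochondrial electron transfer regulator, at 0.107, Atp6v0d1, a proton pump subunit, at 0.109, and Zfp414, a zinc finger gene, at 0.110. The named neighbours of the 2 genes that rose had positive log2 fold changes, from 0.61 for Pgam1 to 0.83 for Slc25a4, and those of the 3 that fell had negative ones, from -0.87 for Rad51ap1 to -0.38 for Zfp414, a sign that the way they were chosen largely sets.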

How the data were processed

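RNA was extracted with a column kit, 1 ng was amplified as full-length cDNA and libraries were made by tagmentation, per the labels' protocols; the kit does not mark strand, so overlapping and antisense genes could not be separated. The authors deposited raw read counts per gene, 1 column per library. The submitters' processing notes name GRCm39, the aligner STAR 2.7.9a and the counter featureCounts of Subread 2.0.1 among the tools, but no order or settings. RefSeq promoters are on GRCm38.p6, so no gene coordinates were taken for the counts, and levels were not compared between genes, for which exon lengths of GRCm39 would be needed.

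From the deposited counts, CPM were computed on library totals (prior count 2 on the log2 scale). edgeR 4.0.16 in R 4.3.3 was used with TMM scaling, filterByExpr over the 4 groups, robust quasi-likelihood F tests and Benjamini-Hochberg adjustment over all genes tested. The SE is the size of the log2 fold change divided by the square root of F, and 95% intervals use the t distribution of the model. All tests were two-sided. Scripts were tested on simulated data. Named genes are the 10 above, up to 5 passed genes with the lowest p per related list and 3 nearest neighbours per passed gene; Hcar2, Gapdh and Pdha1, and Adgre1, Ptprc, Csf1r, Ly6g and Ly6c2, which bear on the sort, were named after their values were seen. Some genes that the rule takes are not reported here. The members, lists and rules were chosen with earlier results of these data known.

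Alternatives were relative log expression (RLE) scaling, DESeq2 1.42.0, limma-voom (limma 3.58.1), no low-count filter, 5 CPM in 3 libraries, no term for sex, a replicate block, only the libraries compared, each library left out, and both libraries that stand apart left out. Xist was at 28.8 to 41.6 CPM in libraries labelled female and at most 3.19 CPM in those labelled male, and Ddx3y, the Y-linked gene checked, at 38.7 to 63.4 CPM in male and at most 4.06 CPM in female libraries; the highest of the opposite sex were male leukemic replicate 1 and female leukemic replicate 3, with 91 counts each. The labels name no batch. P-values measure only the spread between these libraries, which may be technical. No library was a copy of another (lowest chi-square per degree of freedom 22.6).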

Additional observations from a re-analysis of the deposited data

Results flagged for a closer look

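In a group of 6, a library was singled out when its gap to the nearest other, over the whole range, passed Dixon's 95% value. Of 46 groups examined 7 were singled out, where chance gives about 1 in 20. For Slc16a3, male non-leukemic replicate 3 had 79.2 CPM, against 33.4 to 50.3 CPM in the other non-leukemic libraries. Its log2 ratio of Slc16a3 to Slc16a1 was -1.41, against -3.69 to -2.89 in the others. The same library had 0.470% of macrophage markers, against 0.128% to 0.174%, and 0.0443% of dendritic cell markers, against 0.0238% to 0.0296%. Female leukemic replicate 2 had 1.77% of eosinophil, basophil and mast cell markers, against 0.551% to 0.943% in the other leukemic libraries, and 0.0512% of macrophage markers, against 0.0950% to 0.119%. Female leukemic replicate 1 had 0.00665% of stromal, endothelial and bone markers, against 0.0151% to 0.0174%.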

How the results depend on the processing

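In the comparison by condition, 20 alternatives kept 2 members higher and 2 to 4 lower. Slc16a1, Bsg, Emb and Ldha passed under all 20; Mpc2 kept its call under 12 of 20 and Mpc1 under 18. Without both libraries that stand apart, 4 members were lower, with Mpc1 at -0.46 (adjusted p = 0.0151) and Mpc2 at -0.53 (adjusted p = 0.00419), and 4717 of 16300 genes passed. Within males, 2 members were higher in that fit. With a replicate block, males had 1 member lower, with Bsg at an adjusted p of 0.0652, and females 1 higher, with Ldha at 0.0522; with only the libraries compared, males again had 1 lower (Bsg, 0.105) and females 1 higher (Ldha, 0.0579). The block changed no other member call. Same-numbered libraries did not deviate together (18 pairs, correlations of -0.113 to 0.0766). With 3 libraries per group this cannot show whether a shared number stands for shared handling. Without 1 library, males had 0 to 2 members higher and 0 to 3 lower, and females 0 to 2 higher and 0 to 2 lower.

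For the difference between sexes, not past the threshold for any member under any alternative, Ldha was at 0.039 with all libraries, at -0.0071 with 5 CPM in 3 libraries and at -0.099 to 0.18 without 1 library, and Bsg at -0.017 to 0.41 without 1 library. Without both libraries that stand apart it was -0.091 for Slc16a1 and -0.0022 for Bsg. In the same fit the stromal marker share, leukemic minus non-leukemic, was 0.00206%, against -0.00795% with all libraries. The causes were not tested. The alternatives for male against female libraries were chosen after seeing the data, and no member passed in any. For Hcar1, at 0 counts throughout, depth sets only the upper limits given above, and the cause of the 0 counts was not tested.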

Other observations

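Markers of eosinophils, basophils and mast cells held 0.551% to 1.77% of counts in leukemic and 0.353% to 0.639% in non-leukemic libraries (exact permutation test, adjusted p = 0.0260 over 10 lists), and platelet and megakaryocyte markers 0.0271% to 0.0671% in leukemic and 0.0227% to 0.0329% in non-leukemic libraries (adjusted p = 0.0433). Without both libraries that stand apart these were at adjusted p of 0.0635 and 0.132. In edgeR 5 of the 11 eosinophil, basophil and mast cell markers rose. The eosinophil genes Prg2, Prg3 and Epx did not pass (log2 fold changes -0.18, -0.12 and 0.046, adjusted p = 0.656, 0.777 and 0.929). Of the 6 platelet and megakaryocyte markers 1 rose, Itga2b, and 1 fell, Gp9 (log2 fold changes 0.72 and -1.74, adjusted p = 0.0296 and 0.00108). B and plasma cell markers (adjusted p = 0.538), stromal markers (0.625), dendritic cell markers (0.820) and monocyte markers (0.820) did not pass.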
